A study of Mus musculus with 36 samples.

Results

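The response of wild-type (WT) mouse bone marrow-derived macrophages to 120 min of lipopolysaccharide (LPS) was described across 11656 genes by setting the 3 WT libraries taken at 120 min against the 3 taken at 0 min, 6 of the 36 libraries of the series. A gene entered if 3 or more of the 36 libraries reached a linear normalised value of 10 for it, and 11656 of 16416 genes did. Bone marrow cells had been grown for 7 days in RPMI with 10% serum and 10% supernatant of L929 cells, a source of the macrophage growth factor M-CSF, and the stimulated cells received 100 ng/ml LPS. The other groups used here are WT at 30, 60, 240 and 360 min, and macrophages carrying the D310N form of Tnip2 at 0 and 120 min, again 3 libraries each, cultured in the same way. All groups therefore share the culture in L929 supernatant, and the 0 min groups were unstimulated. The series holds no unstimulated group at a later time, so LPS and elapsed time cannot be told apart in these comparisons. The labels do not tie libraries to separate mice or cultures, so p-values measure the spread between libraries, which may be technical.

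LPS, a component of the outer membrane of Gram-negative bacteria, is bound by CD14, MD-2 and TLR4 on macrophages. The adaptor MyD88 carries the signal from the cell surface to NF-kB and the MAP kinases, which switch on cytokine, chemokine and immediate early genes, while the adaptor TRIF acts from endosomes through TBK1 and IRF3 and switches on interferon beta. Secreted interferon then acts back on the cells through IRF9 and its partners, and a broad set of antiviral genes follows. Many of the induced genes, among them those of A20, the IkB proteins, the SOCS proteins and several phosphatases, encode inhibitors of the same signals. Tnip2 encodes ABIN-2, a partner of A20 that holds the kinase Tpl2 (gene Map3k8).

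At 120 min 7761 genes differed from 0 min in limma's test at a Benjamini-Hochberg adjusted p under 0.05, 66.6% of the genes tested. Of these, 3772 rose (32.4%) and 3989 fell (34.2%). Most differences were small: 3949 of the 7761 were under 0.5 on the log2 scale, the median called rise was 0.47 and the median called fall -0.51. The largest differences were rises. A rise of at least 1 (2-fold) was called for 898 genes (7.7% of those tested) and a fall of that size for 628 (5.39%), and past 2 on the log2 scale there were 318 rises and 58 falls. Past 3 there were 99 rises and 4 falls, the falls being those of Arrdc3, Cnr2, Irf2bp2 and Zfp395. The genes that rose by at least 2 had a median log2 value of 6.95 at 0 min, against 8.55 for all genes tested.

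**Figure D1:**
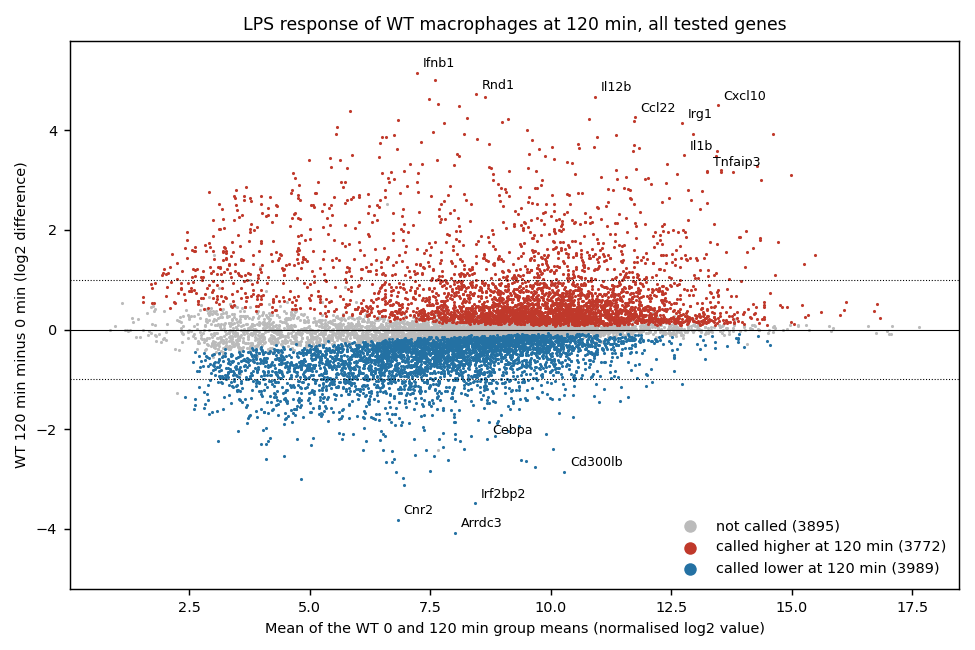
Log2 difference between WT macrophages at 120 min and 0 min of LPS (vertical axis) against the mean of both group means (normalised log2 value, horizontal axis), with 1 point per tested gene. Red points are the 3772 genes called higher, blue points the 3989 called lower and grey points those not called, and dotted lines mark a difference of 1. Rises reach 5.16 (Ifnb1) and falls -4.08 (Arrdc3).

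Replicates were close relative to these differences. The median SD of the 3 libraries was 0.067 log2 units at 0 min and 0.076 at 120 min, and the values of the 0 min and the 120 min libraries did not overlap for 8321 genes (71.4%). Between libraries of 1 group the correlation across genes was 0.997 or higher, and between a 0 min and a 120 min library 0.956 or lower. Library 1 of WT at 360 min stands apart from its group. It enters the shared estimate of the spread, and without it 8117 genes were called, with 1526 at a size of at least 1 both with and without it. The deposited table holds log2 values and no counts, so depth is unknown, and in these bulk libraries fewer cells of a type and less RNA per cell cannot be told apart.

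The WT macrophages carried their own markers. All 11 macrophage markers in the table passed the filter, and their summed linear level ran from 2.499e+05 to 2.595e+05 in the 0 min libraries and from 2.85e+05 to 2.973e+05 at 120 min. Csf1r, the M-CSF receptor, differed by -0.01 ± 0.05 (SE) and was not called, but was called lower with quantile normalisation (-0.56). Of the lists of other cells, most genes stayed below the filter, among them Ly6g, Mpo, Elane and Camp of neutrophils, Ms4a1 and Pax5 of B cells, Cd3d, Cd3g and Ncr1 of T and NK cells, Gata1 and Cpa3 of the erythroid, megakaryocyte and mast cell list, and Col1a1, Col3a1 and Dcn of stroma. In the lists just named, the genes that passed it were S100a8, S100a9, Csf3r and Mmp8 of neutrophils, Cd79b and Cd22 of B cells, Cd4, Cd28 and Lck of T and NK cells, Pf4 and Kit of the erythroid, megakaryocyte and mast cell list, and Col1a2 and Pdgfrb of stroma. The sums given for these lists include their genes below the filter. The summed level of the 8 B cell genes with values was 159.5 to 175.2 at 0 min and 128.4 to 155.7 at 120 min. Cd22 was called lower (-0.33 ± 0.10) and Cd79b was not called (0.20). The sum of the 8 erythroid, megakaryocyte and mast cell genes with values was 943.5 to 1001 and then 1024 to 1147. Pf4 was called higher (0.20 ± 0.09), a call lost in 7 of the 20 alternatives run, and Kit was not called (-0.24). Neither pair of ranges overlapped. Of the dendritic cell list 8 of 12 genes passed it, and Flt3, Siglech, Cd209a and Itgae did not. Its summed level was 2539 to 2840 at 0 min and 3481 to 3849 at 120 min, with 5 genes called higher, among them Zbtb46 (2.61 ± 0.18), Ccr7 (2.31 ± 0.29) and Xcr1 (2.28 ± 0.15). The other 3 tested, Clec9a (-0.39), Kmo (-0.14) and Batf3 (0.30), were not called. The T and NK list, of which 3 of 14 genes passed, went from between 956.3 and 1004 to between 596.3 and 679.6, Cd28 being lower (-0.93 ± 0.13) and the kinase gene Lck higher (2.31 ± 0.13). Cd4 was not called (-0.22). In the stroma list, with 2 of 10 genes tested, the sum went from between 37.34 and 45.7 to between 85.27 and 98.51, and Pdgfrb rose by 2.25 ± 0.16. Col1a2 was not called (-0.10). The sums of the neutrophil list overlapped between the times, 840 to 875.2 and 833.8 to 864.7. Of the osteoclast list 7 of 9 genes passed the filter, 2 of them called higher and 1 lower. Its sums were 1831 to 1898 at 0 min and 1947 to 1997 at 120 min, without overlap. The part of other cell types in the results below was not tested.

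The largest rise was that of Ifnb1, the gene of interferon beta (chr4:88522025-88522774, minus strand). Its log2 values were 4.68, 4.53 and 4.76 at 0 min and 9.72, 9.87 and 9.85 at 120 min. Every stimulated library thus lay far above every unstimulated one, by 5.16 ± 0.22 on the log2 scale (35.7-fold, limma adjusted p = 1.3e-19). The genes that lead to interferon production and receive it moved far less. Of 17 tested genes of interferon induction and its receptor 16 rose and 1 fell, with a median of 0.56 against -0.02 for all genes tested. With quantile normalisation 12 rose and 1 fell, with a median of 0.27. Ifih1, the cytosolic RNA sensor MDA5, rose by 2.64 ± 0.06, Ikbke, a kinase acting beside TBK1, by 1.39 ± 0.06, and Tbk1 itself by 0.55 ± 0.05. The receptor genes Ifnar1 and Ifnar2 rose by 0.63 ± 0.06 and 0.53 ± 0.04, and Mavs, the mitochondrial adaptor of the RNA sensors, fell (-0.28 ± 0.05). Ifna2 and Ifna4 stayed below the filter.

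Interferon-stimulated antiviral genes rose without exception among those tested, 38 of 38, by 0.35 to 3.94 with a median of 1.32. On quantile normalisation of the libraries 33 of the 38 rose and none fell. Ifit1, which binds foreign RNA caps, had log2 values of 11.08, 11.04 and 10.85 at 0 min and 14.97, 14.97 and 14.85 at 120 min, a rise of 3.94 ± 0.08. For Rsad2, which encodes viperin, the values were 12.72, 12.69 and 12.57 before and 16.68, 16.61 and 16.45 after LPS, 3.92 ± 0.07 higher. Mx2 (3.67 ± 0.05), Oasl1 (3.64 ± 0.06) and Cmpk2 (3.58 ± 0.09) followed. At the other end stood Sp100 (0.35 ± 0.06), Samhd1 (0.36 ± 0.05), Oas2 (0.37 ± 0.08) and Bst2 (0.40 ± 0.07), called but small. The median of the list was 0.10 at 60 min and 2.99 at 240 min, so that 120 min fell within its rise.

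The guanylate-binding proteins and the immunity-related GTPases, which attack the vacuoles of intracellular pathogens, had a median of 2.16, and 15 of 16 rose; 3 of them (Igtp, Ifi47 and Irgm1) are also in the antiviral list. Gbp5, which promotes inflammasome assembly, went from 9.69, 9.63 and 9.61 to 13.93, 13.80 and 13.76, a rise of 4.19 ± 0.05, the libraries of each time lying close together and far from those of the other. Tgtp1 rose by 3.46 ± 0.12, Iigp1 by 2.70 ± 0.10 and Gbp2 by 2.65 ± 0.05. Gbp8 alone was called lower (5.36, 5.44 and 5.33 against 4.86, 4.98 and 5.03, a difference of -0.43 ± 0.15, limma adjusted p = 0.0118), which quantile normalisation did not call. Tgtp1 and Tgtp2, and several Gbp genes, are near-identical copies among which the counting could have split reads.

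The sequences before the start sites of 4 of these strongly rising genes hold the letters GAAA, any 2 bases and GAAA again, searched on both strands and called ISRE here after the interferon-stimulated response element that IRF9 and other IRF proteins are known to bind. They are shown from RefSeq (GRCm38.p6), with the matches in capitals. In Ifit1 (chr19:34640639-34640869, plus strand) a pair of matches begins at -104 and -85 from the RefSeq start, in Rsad2 (chr12:26456453-26456702, minus strand) 1 at -120 and in Cxcl10 (chr5:92348890-92349139, minus strand) 1 at -213. The window of Gbp5 (chr3:142496684-142496894, plus strand) has an ISRE match at -165, a match of the NF-kB letters (kB: GGG, any 2 bases and TTTCC, on either strand) at -77, and matches of TTCNNNGAA, called GAS here after the gamma-activated sequence, at -245 and -52.
Ifit1: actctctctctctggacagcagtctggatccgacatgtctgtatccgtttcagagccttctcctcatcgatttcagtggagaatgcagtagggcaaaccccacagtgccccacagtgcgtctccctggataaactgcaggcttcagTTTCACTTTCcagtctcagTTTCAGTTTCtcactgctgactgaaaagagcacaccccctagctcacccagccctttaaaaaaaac
Rsad2: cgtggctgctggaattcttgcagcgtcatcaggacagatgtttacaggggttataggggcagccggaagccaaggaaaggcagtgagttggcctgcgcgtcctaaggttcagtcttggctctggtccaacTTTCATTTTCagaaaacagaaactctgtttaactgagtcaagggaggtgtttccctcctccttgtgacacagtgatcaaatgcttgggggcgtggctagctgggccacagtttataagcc
Cxcl10: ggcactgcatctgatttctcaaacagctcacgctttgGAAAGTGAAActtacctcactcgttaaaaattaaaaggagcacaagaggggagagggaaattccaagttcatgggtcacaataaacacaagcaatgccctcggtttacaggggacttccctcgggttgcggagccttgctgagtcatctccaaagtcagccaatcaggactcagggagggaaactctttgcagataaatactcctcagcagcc
Gbp5: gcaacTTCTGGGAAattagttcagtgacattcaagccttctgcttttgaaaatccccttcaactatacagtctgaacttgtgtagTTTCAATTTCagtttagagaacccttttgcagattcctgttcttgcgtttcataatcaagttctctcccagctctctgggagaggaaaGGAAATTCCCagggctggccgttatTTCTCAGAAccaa
A match describes these letters and is not evidence of binding.

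Across genes, the share of promoters with a match differed with the size of the change. A RefSeq window of 300 bases, 250 before the start and 50 from it on, was found for 9254 of the tested genes, and the 7373 with exactly 1 window were used. An ISRE match stood in 261 of these (3.54%; 3.44% of all 32851 RefSeq windows), in 51 of the 537 genes that rose by at least 1 (9.5%), in 10 of the 63 that rose by at least 3 (15.9%) and in 7 of the 381 that fell by at least 1 (1.84%). Among the antiviral list it was 14 of 24 (58.3%) and among the GTPase list 8 of 9 (88.9%). kB matches stood in 1.78% of the tested genes (1.63% of all windows), 4.66% of the rises of at least 1, 9.52% of those of at least 3, and 1.31% of the falls of at least 1. The letters TATAAA were in 6.92%, 13.4%, 23.8% and 9.19% of the same groups (13.6% of all windows). The other motifs searched did not all become more frequent with the rise. In the same groups TTCCCGC (E2F) stood in 8.98%, 5.21%, 1.59% and 12.1%, and TGACGTCA (CRE) in 3.46%, 3.17%, 1.59% and 3.94%. GAS matches stood in 6.93%, 9.12%, 11.1% and 5.51%, and GTAAACA (FOXO) in 2.56%, 3.72%, 3.17% and 3.15%. The median ratio of observed to expected CpG pairs was 0.784 for all, 0.651 for rises of at least 1, 0.399 for rises of at least 3 and 0.762 for falls of at least 1. No test was made of these shares, and the motifs can overlap one another.

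**Figure D2:**
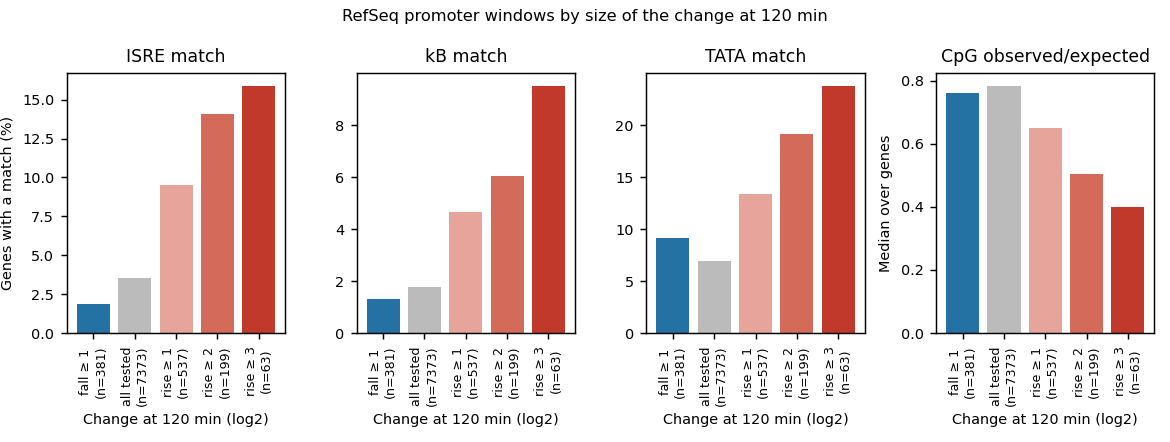
Share of genes with an ISRE, kB or TATA match in their RefSeq promoter window (vertical axis, percent) and the median observed-to-expected CpG ratio, for genes grouped by their called log2 change in WT at 120 min (horizontal axis, with the number of genes). ISRE matches go from 1.84% of the falls of at least 1 to 15.9% of the rises of at least 3, and the CpG ratio from 0.762 to 0.399.

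Secreted cytokines rose in 22 of 23 tested genes, with a median of 2.81. Il12b, the p40 chain of interleukins 12 and 23, went from 8.59, 8.57 and 8.60 to 13.33, 13.14 and 13.32, a rise of 4.68 ± 0.10 (25.6-fold, limma adjusted p = 1.85e-27). The other chain of interleukin 12, Il12a, rose by 1.49 ± 0.18 and that of interleukin 23, Il23a, by 3.26 ± 0.20. Il27 rose by 4.24 ± 0.17, and Ebi3, whose product pairs with it, by 1.65 ± 0.09. The pyrogens Il6 (3.92 ± 0.14), Il1a (3.65 ± 0.12), Il1b (3.51 ± 0.07) and Tnf (3.17 ± 0.12) were all several-fold higher. Il1b values were 11.02 in each unstimulated library and 14.51, 14.55 and 14.52 after LPS. Among the dampening cytokines, Il10 rose by 1.97 ± 0.17 and Il1rn, the interleukin 1 receptor antagonist, by 0.91 ± 0.16. Osm was not called (0.23 ± 0.11; called in 9 of the 20 alternatives), and Csf3 stayed below the filter.

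These cytokines had reached 120 min by different courses. Tnf stood at a mean of 11.95 at 0 min, 15.53 at 60 min and 15.12 at 120 min, so most of its change was made in the first hour. Il6 was at 6.25, 7.98 and 10.17 at the same times and at 12.41 at 240 min. Il10 was at 6.06, 8.40 and 8.03, and then at 9.07.

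Chemokines had the highest median of the 51 lists, 3.31, with 18 of 19 tested genes called higher. The CXCR3 ligands, which draw activated T cells, rose by 4.63 ± 0.07 (Cxcl11), 4.50 ± 0.08 (Cxcl10) and 3.72 ± 0.06 (Cxcl9); the 3 genes lie close together on chromosome 5. Cxcl10 had values of 11.27, 11.21 and 11.16 before and 15.75, 15.73 and 15.66 after LPS. The neutrophil-attracting Cxcl3 (4.49 ± 0.20), Cxcl1 (3.63 ± 0.24) and Cxcl2 (3.02 ± 0.19) rose as well. Cxcl3 went from 5.84, 5.74 and 5.95 to 10.31, 10.31 and 10.38. Ccl17 (4.39 ± 0.13) and Ccl22 (4.26 ± 0.08), the CCR4 ligands, lie close together on chromosome 8. Ccl5, Ccl4, Ccl3 and Ccl2 rose by 3.90, 3.49, 3.17 and 2.79, each with an SE of 0.11 or less. Ccl6 was not called (0.20 ± 0.11), and Cxcl16 was the smallest called rise (0.88 ± 0.05).

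The window of Cxcl3 (chr5:90785851-90786100, plus strand, GRCm38.p6, RefSeq) is shown because it holds a kB match, at -73, and TATAAA, at -30, in capitals. In the chemokine list 4 of 12 genes with 1 window held a kB match (33.3%) and 5 held TATAAA (41.7%).
Cxcl3: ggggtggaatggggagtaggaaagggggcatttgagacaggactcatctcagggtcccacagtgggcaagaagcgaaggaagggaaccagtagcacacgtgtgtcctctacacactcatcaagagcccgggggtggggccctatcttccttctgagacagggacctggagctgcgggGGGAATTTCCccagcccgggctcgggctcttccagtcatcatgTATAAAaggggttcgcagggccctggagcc

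**Figure D3:**
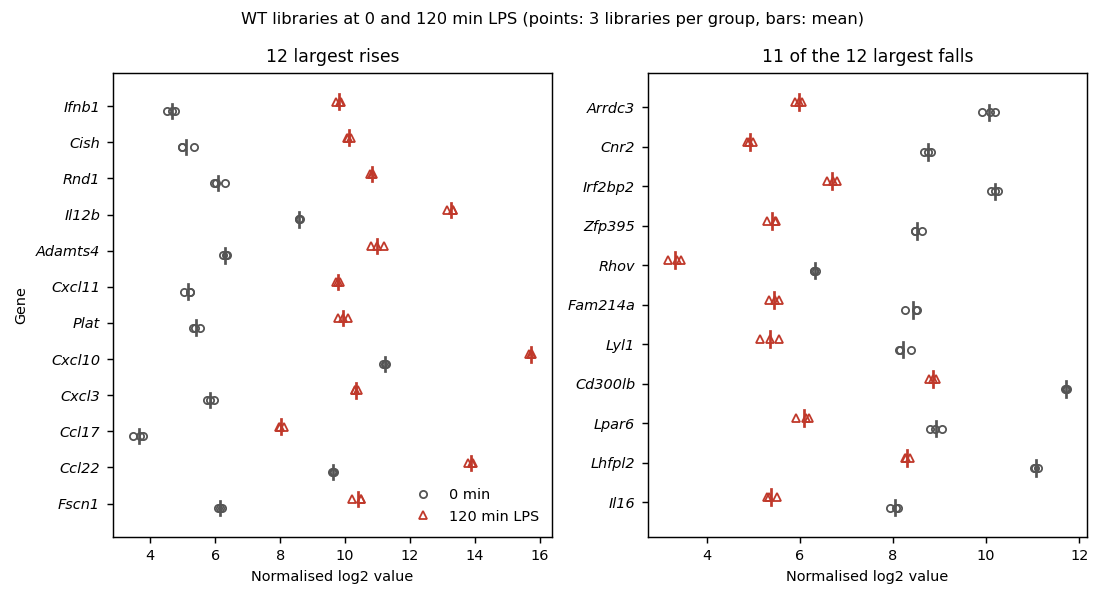
Normalised log2 values (horizontal axis) of the WT libraries at 0 min (circles) and 120 min (triangles) for the 12 largest called rises and 11 of the 12 largest called falls whose libraries do not overlap and whose higher group averages 50 or more in linear units. Each symbol is 1 library and each bar a group mean; the difference runs from 5.16 (Ifnb1) to 4.25 (Fscn1) on the left and from -4.08 (Arrdc3) to -2.65 (Il16) on the right.

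Other genes among the 12 largest rises act outside cytokine signalling. Adamts4, a protease that cuts proteoglycans, rose by 4.68 ± 0.17, and Plat, tissue plasminogen activator, by 4.53 ± 0.13. Plau, the urokinase activator, fell (-1.35 ± 0.16), and its receptor gene Plaur rose by 1.74 ± 0.09. Fscn1, the actin-bundling protein fascin, went from 6.21, 6.07 and 6.14 to 10.50, 10.21 and 10.47 (4.25 ± 0.08). Rnd1, a small GTPase that loosens adhesion, went from 5.95, 6.03 and 6.31 to 10.83, 10.75 and 10.87 (4.72 ± 0.18). In the list of matrix proteases and the plasminogen system 9 of 19 rose and 4 fell, with a median of 0.22. Among all genes tested 32.4% were called higher and 34.2% lower.

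NF-kB subunits and inhibitors rose in 17 of 18 tested genes, with a median of 1.86. The genes of A20 and of IkB-family proteins were among the larger changes: Tnfaip3, which encodes A20, rose from 11.68, 11.67 and 11.65 to 14.90, 14.86 and 14.77 (3.18 ± 0.06). Nfkbiz, an atypical IkB that assists late genes, rose by 2.94 ± 0.07, Bcl3 by 2.71 ± 0.08 and Nfkbia, the classical IkB-alpha, by 2.61 ± 0.05. The subunit genes Rel (2.08 ± 0.10), Nfkb2 (1.96 ± 0.04), Relb (1.76 ± 0.06) Nfkb1 (1.71 ± 0.04) and Rela (0.89 ± 0.06) rose. Of the IkB kinase genes Ikbkb rose by 0.86 ± 0.05 and Chuk by 0.27 ± 0.05, and Ikbkg fell (-0.19 ± 0.06). The 3 ABIN genes differed in size of response: Tnip1 rose by 2.12 ± 0.06, Tnip3 by 1.68 ± 0.09 and Tnip2 by 0.28 ± 0.06. Tnip2 values were 8.76, 8.85 and 8.84 at 0 min and 9.18, 9.0 and 9.11 at 120 min, and Map3k8, the gene of its partner Tpl2, went from 8.45, 8.59 and 8.44 to 10.78, 10.69 and 10.63 (2.21 ± 0.05).

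Inhibitors of cytokine receptors included the second-largest rise. Cish, a SOCS-family target of STAT5, went from 4.97, 4.98 and 5.34 to 10.19, 10.09 and 10.06 (5.02 ± 0.17, limma adjusted p = 9.4e-22). Socs1 rose by 4.14 ± 0.14, Socs3 by 3.71 ± 0.07 and Socs2 by 1.39 ± 0.16, while Socs6 fell (-0.31 ± 0.05). In all 8 of the 12 genes of this list rose and 3 fell, against 32.4% and 34.2% of all genes tested, with a median of 1.30. Interferon regulatory factors and STATs rose in 16 of 18, with Irf1 (3.32 ± 0.09), Stat5a (3.06 ± 0.09) and Batf (2.34 ± 0.11) in front, and Irf2 was the 1 called lower (-0.23 ± 0.06). Stat2 was up by 0.86 ± 0.06.

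Immediate early genes no longer moved together at 120 min: 10 of 26 rose, 10 fell and the median was 0.03 (-0.03 with quantile normalisation). Of all genes tested 32.4% were called higher and 34.2% lower, so these counts were near the general shares. The median of this list had been 1.18 at 30 min and 1.11 at 60 min. Nr4a3, an orphan nuclear receptor, was still up by 4.22 ± 0.17, Maff by 2.73 ± 0.12 and Junb by 1.39 ± 0.04. Fos (-1.34 ± 0.07), Jun (-1.38 ± 0.06) and Myc (-0.97 ± 0.09) were below their 0 min level, as was the zinc finger factor Klf4 (-1.62 ± 0.11). Jun had values of 10.88, 10.83 and 10.90 at 0 min and 9.51, 9.46 and 9.50 at 120 min, without overlap. Egr1 was not called (0.28 ± 0.16).

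The list of MAP kinase phosphatases and Sprouty-related proteins, which restrain ERK, JNK and p38, also divided. In it 8 of 15 rose and 6 fell, against 32.4% and 34.2% of all genes tested. Map3k8, the gene of the kinase Tpl2, is in this list as well and is among the 8. Dusp2 went from 8.16, 8.14 and 8.15 to 11.56, 11.73 and 11.60 (3.48 ± 0.09). Dusp6, the cytosolic ERK phosphatase, went the other way, from 9.47, 9.47 and 9.27 to 6.91, 7.10 and 7.00 (-2.40 ± 0.12), and Spry2 fell with it (-1.58 ± 0.09). Dusp14 rose by 2.30 ± 0.21 and Dusp1 by 1.06 ± 0.19.

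Regulators of mRNA decay showed the same kind of division among paralogs. Zfp36, the gene of tristetraprolin, rose by 1.11 ± 0.11, and its paralogs Zfp36l1 and Zfp36l2 fell (-1.39 ± 0.08 and -2.40 ± 0.05). Zfp36l2 values were 11.27, 11.21 and 11.25 before and 8.88, 8.85 and 8.81 after LPS. Zc3h12a, the ribonuclease Regnase-1, rose by 2.28 ± 0.08 and Zc3h12c by 2.03 ± 0.07, and Zc3h12d fell (-1.48 ± 0.09). Arid5a, which protects the Il6 transcript, rose by 1.88 ± 0.08. Over the list 10 of 15 rose and 4 fell, against 32.4% and 34.2% of all genes tested.

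Among Toll-like receptors and their co-receptors 9 of 15 rose and 3 fell (8 and 6 with quantile normalisation), against 32.4% and 34.2% of all genes tested. Tlr2, the receptor of bacterial lipopeptides, went from 10.63, 10.62 and 10.60 to 13.57, 13.53 and 13.54 (2.93 ± 0.06), and its partner genes Tlr1 and Tlr6 rose by 1.36 ± 0.06 and 0.93 ± 0.06. Tlr4, the LPS receptor, fell from 11.27, 11.40 and 11.31 to 10.50, 10.51 and 10.28 (-0.89 ± 0.06), whereas its co-receptors Cd14 and Ly96 (MD-2) rose by 1.25 ± 0.07 and 0.64 ± 0.07. Tlr13 and Tlr5 fell (-0.89 ± 0.04 and -1.13 ± 0.21). Downstream, 15 of 21 adaptors and kinases rose and 3 fell: Peli1, a ubiquitin ligase, rose by 2.84 ± 0.08, Ripk2 by 2.51 ± 0.09 and Myd88 by 1.02 ± 0.04, and Tab1 fell (-1.27 ± 0.10).

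Receptors for chemoattractants and small mediators changed in both directions. Ccrl2 (3.13 ± 0.06), the formyl peptide receptors Fpr2 (2.72 ± 0.12) and Fpr1 (2.24 ± 0.14), and Ccr7 rose, and Cxcr4 (-2.62 ± 0.15), S1pr1 (-1.83 ± 0.09), Ccr2 (-0.83 ± 0.12) and Cx3cr1 (-0.81 ± 0.10) fell. Cxcr4, the receptor that retains cells in bone marrow, had values of 9.13, 9.10 and 9.33 and then 6.45, 6.49 and 6.78. Adora2a, the anti-inflammatory adenosine receptor, rose from 5.50, 5.48 and 5.75 to 9.60, 9.40 and 9.62 (3.96 ± 0.09). Gpr84, a fatty acid receptor, rose by 2.91 ± 0.05 and Hcar2, the niacin receptor, by 2.40 ± 0.06. The cannabinoid receptor gene Cnr2 had the largest fall of any receptor listed, from 8.67, 8.83 and 8.76 to 5.0, 4.88 and 4.91 (-3.82 ± 0.13).

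Costimulators rose in 13 of 16 tested genes, with a median of 1.92. Cd40 went from 9.94, 9.93 and 9.89 to 13.56, 13.42 and 13.55 (3.59 ± 0.05), Icam1 rose by 3.29 ± 0.08, Cd274 (PD-L1) by 2.80 ± 0.06 and Cd80 by 1.76 ± 0.08. The antigen presentation lists moved less: MHC class I and immunoproteasome genes rose in 14 of 15 with a median of 0.54, and class II genes in 7 of 9 with a median of 0.50. Under quantile normalisation those counts were 9 rising and 4 falling, and 6 rising and 1 falling. Ciita, the master regulator of class II genes, rose by 1.32 ± 0.09.

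Enzymes of nitric oxide, arginine, itaconate and tryptophan metabolism rose in 10 of 12. Irg1, the itaconate-making enzyme, had the smallest adjusted p of the genes named here, with 10.66, 10.66 and 10.65 at 0 min and 14.82, 14.78 and 14.79 at 120 min (4.14 ± 0.04, limma adjusted p = 7.51e-37). Nos2, the inducible nitric oxide synthase, rose by 3.83 ± 0.07 and the arginine transporter gene Slc7a2 by 3.53 ± 0.10. In prostaglandin synthesis the inducible pair Ptgs2 (3.06 ± 0.10) and Ptges (2.61 ± 0.11) rose, and the constitutive Ptgs1 fell (-0.32 ± 0.11); 7 of the 15 genes of that list were not called. Inflammasome genes rose in 8 of 16 and fell in 4, against 32.4% and 34.2% of all genes tested. Casp4 (1.98 ± 0.06), Nlrp3 (1.75 ± 0.06) and Aim2 (1.09 ± 0.07) rose, and Nlrp1b fell (-0.94 ± 0.09).

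Central metabolism changed little in size. For the counts that follow, 32.4% of all tested genes were called higher and 34.2% lower. Of 19 glycolysis genes 6 rose, led by Pfkfb3 (1.62 ± 0.09) and Hk2 (1.55 ± 0.12), 2 fell, led by Pfkfb4 (-1.28 ± 0.05), and 11 were not called, Gapdh among them (0.06 ± 0.05, but -0.42 and called with quantile normalisation). Sterol synthesis and uptake genes rose in 6 of 19 and fell in 10, the latter including Lss (-0.72 ± 0.08), Msmo1 (-0.69 ± 0.10) and Dhcr7 (-0.69 ± 0.08). Cytosolic ribosomal protein genes rose in 23 of 28 with a median of only 0.17, and with quantile normalisation all 28 fell (median -0.31). Oxidative phosphorylation genes rose in 13 of 23 (median 0.14) but in 2 with 9 falling under quantile normalisation (median -0.10). Ribosome biogenesis genes rose in 20 of 25 with a median of 0.27 and kept a median of 0.29 under it. Wdr43 (1.14 ± 0.05) and Nop58 (0.94 ± 0.07) led that list.

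**Figure D4:**
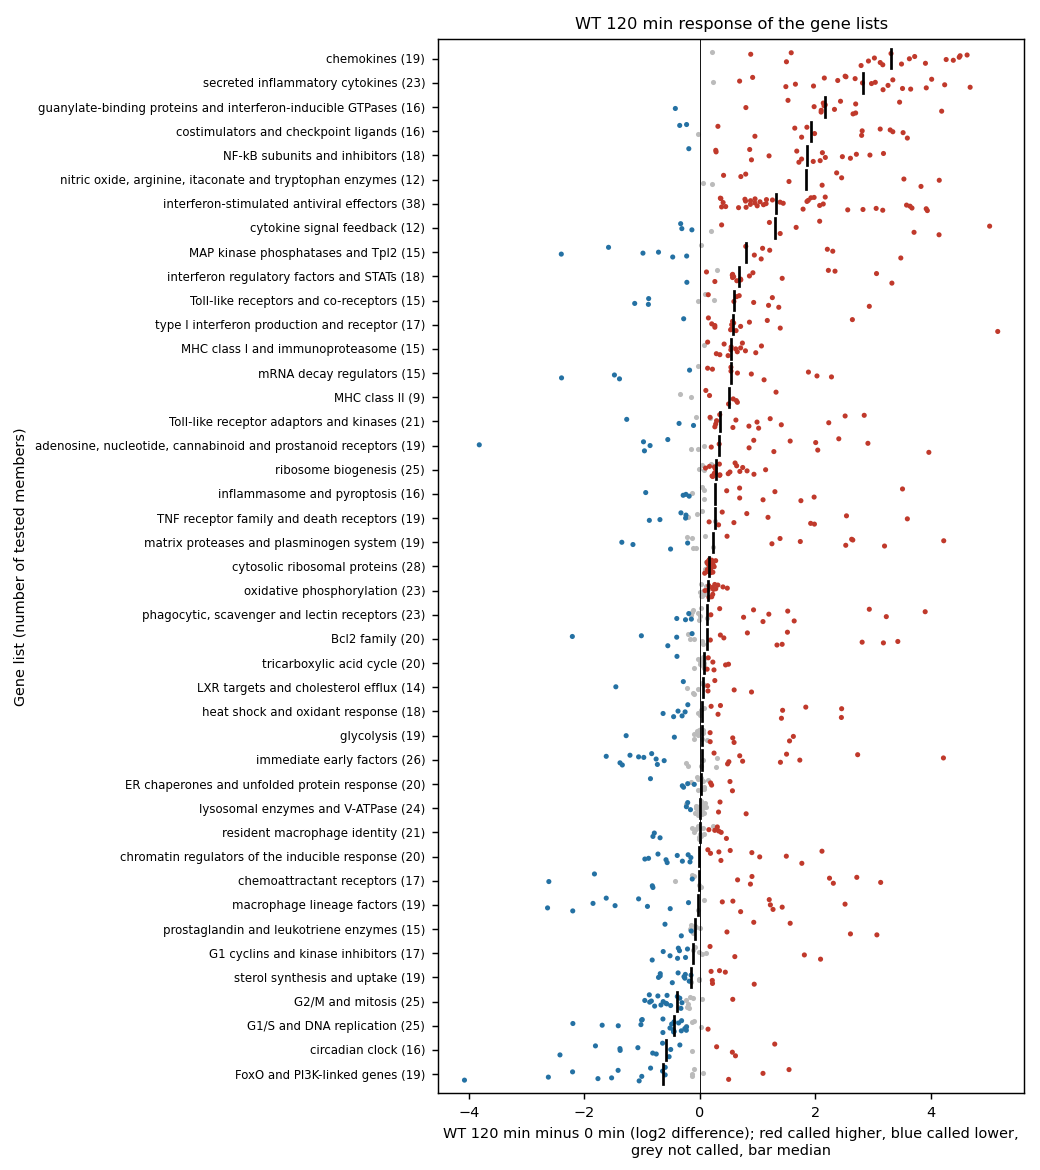
Log2 difference of WT at 120 min against 0 min (horizontal axis) for every tested member of the gene lists other than the cell type markers (rows, with the number tested), red where called higher, blue where called lower and grey where not called, with a bar at the median. Chemokines (median 3.31) and secreted cytokines (2.81) stand at the top, and the clock (-0.59) and FoxO-linked (-0.65) lists at the bottom.

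Genes of DNA replication and mitosis were lower. In the G1/S list 20 of 25 fell and 1 rose, with a median of -0.45, and in the G2/M list 16 of 25 fell and 1 rose, with a median of -0.39. Among all genes tested 34.2% were called lower and 32.4% higher. E2f2 fell from 8.21, 8.27 and 8.29 to 6.01, 6.19 and 5.97 (-2.20 ± 0.11), and Cdc6 and Cdt1, which license replication origins, fell too (-1.69 ± 0.11 and -1.02 ± 0.07). Kif23 (-0.96 ± 0.13) and Ect2 (-0.88 ± 0.11) of cytokinesis were the largest falls of the G2/M list, in which no fall reached 1. Mki67, the proliferation marker Ki-67, was the 1 gene of its list called higher (0.57 ± 0.12), and 8 others were not called. With quantile normalisation Mki67 was not called either (0.23). Both lists went on down afterwards, to medians of -1.28 and -1.56 at 240 min. The E2F letters TTCCCGC stood in the windows of 7 of 17 G1/S genes with 1 window (41.2%), against none of 18 G2/M genes and 8.98% of the tested genes (4.6% of all windows). Of G1 regulators, Ccnd2 (2.09 ± 0.07) and the CDK inhibitor gene Cdkn1a (1.81 ± 0.09) rose, and Ccnd1 fell (-0.83 ± 0.10).

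The FoxO and PI3K-linked list had the lowest median, -0.65, with 12 of 19 falling and 3 rising, against 34.2% and 32.4% of all genes tested. Arrdc3, an arrestin-domain adaptor for receptor trafficking, was the largest fall of all named genes, from 9.91, 10.18 and 10.08 to 6.04, 5.99 and 5.90 (-4.08 ± 0.17, 16.9-fold, limma adjusted p = 6.22e-20). It had fallen early, with means of 9.22 at 30 min and 7.19 at 60 min. Sesn1, a stress-responsive inhibitor of mTORC1, went from 10.69, 10.76 and 10.65 to 8.10, 8.10 and 8.02 (-2.62 ± 0.11), and Foxo3 itself from 8.86, 8.70 and 8.82 to 6.74, 6.62 and 6.40 (-2.21 ± 0.09). Txnip (-1.05 ± 0.08), Klhl24 (-1.53 ± 0.15) and the pro-apoptotic Bmf of the Bcl2 family (-2.21 ± 0.14) fell as well, and Ccng2 (1.54 ± 0.11) and Pik3r1 (1.09 ± 0.06) rose. The FOXO letters GTAAACA stood in 1 of 12 genes of the FoxO list with 1 window (8.33%), against 2.56% of the tested genes.

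Transcription factors of the myeloid lineage split. Cebpa fell from 9.79, 9.71 and 9.86 to 7.72, 7.40 and 7.63 (-2.20 ± 0.09). Tfeb (-1.85 ± 0.20), the regulator of lysosomal genes, and Fli1 (-1.47 ± 0.08) also fell. Tfec, a relative of Tfeb, rose from 8.42, 8.47 and 8.52 to 11.01, 10.93 and 11.01 (2.51 ± 0.14), with Irf8 (1.42 ± 0.09) and Mitf (1.22 ± 0.08). Lysosomal enzyme and V-ATPase genes, for their part, were called in 6 of 24, against 66.6% of all genes tested. They split 3 each way, with a median of 0.00 (19 of 24 fell with quantile normalisation, median -0.43). Resident macrophage genes were called in 9 of 21, again against 66.6% of all genes tested. Of the 9, Adgre1, Axl, Folr2 and the C1q genes rose by 0.15 to 0.46, and Mertk (-0.69 ± 0.09), Cd163 (-0.79 ± 0.14) and Cx3cr1 fell. With quantile normalisation 16 of these 21 fell and none rose.

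Circadian clock genes fell in 11 of 16 and rose in 4, against 34.2% and 32.4% of all genes tested, with a median of -0.59. Per1 went from 7.81, 7.61 and 7.81 to 5.12, 5.45 and 5.40 (-2.42 ± 0.15), Bhlhe41 fell by 1.81 ± 0.10, and Dbp and Nr1d1 (Rev-erb alpha) were lower by more than 1 (-1.39 ± 0.13 and -1.38 ± 0.21). Nfil3, which opposes Dbp, rose by 1.29 ± 0.12, and Clock and Cry1 by 0.61 ± 0.08 and 0.56 ± 0.09. The remaining large falls belonged to several classes. Irf2bp2, a corepressor binding IRF2, went from 10.25, 10.11 and 10.20 to 6.59, 6.70 and 6.80 (-3.49 ± 0.14). Cd300lb, an activating receptor of myeloid cells, went from 11.72, 11.73 and 11.69 to 8.78, 8.86 and 8.92 (-2.86 ± 0.16). Zfp395 (-3.11 ± 0.08), Rhov (-2.996 ± 0.20), Fam214a (-2.97 ± 0.12), Lyl1 (-2.87 ± 0.16), Lpar6 (-2.84 ± 0.11), Lhfpl2 (-2.76 ± 0.12) and Il16 (-2.65 ± 0.13) were also among the 12 largest.

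Cell death, phagocytic and chromatin genes changed member by member. Their counts stand beside 32.4% of all tested genes called higher and 34.2% called lower. In the Bcl2 family 10 of 20 rose and 5 fell (median 0.12, -0.06 with quantile normalisation): the survival genes Bcl2a1d (3.43 ± 0.04), Bcl2a1a (3.18 ± 0.10) and Bcl2a1b (2.81 ± 0.06), near-identical copies, rose with Bcl2l1 (1.33 ± 0.05), and the pro-apoptotic Bcl2l11 (Bim) rose by 1.42 ± 0.08 while Pmaip1 (Noxa) fell (-1.01 ± 0.14). Of 19 genes of the TNF receptor family and death signalling 10 rose and 5 fell, Cflar, an inhibitor of caspase activation, rising by 2.54 ± 0.05 and Fas by 1.92 ± 0.06. Phagocytic, scavenger and lectin receptors rose in 11 of 23 and fell in 4. Olr1, a receptor of oxidised lipoprotein, went from 4.82, 4.68 and 4.90 to 8.66, 8.77 and 8.67 (3.90 ± 0.16), and Clec4e, the Mincle receptor, rose by 3.23 ± 0.06. Chromatin regulators split evenly, 10 up and 10 down of 20, with Setdb2 (2.11 ± 0.08), the H3K27 demethylase gene Kdm6b (1.76 ± 0.13) and Tet2 (1.5 ± 0.09) higher and the deacetylase genes Hdac5 (-0.95 ± 0.10) and Hdac7 (-0.89 ± 0.12) lower. In the list of heat shock and oxidant genes 8 of 18 rose and 6 fell, among them the cystine transporter gene Slc7a11 (2.45 ± 0.16) and Hmox1, heme oxygenase (-0.64 ± 0.18). Chaperones of the endoplasmic reticulum, tricarboxylic acid cycle genes and LXR targets were called in 9 of 20, 7 of 20 and 7 of 14, with medians of 0.02, 0.06 and 0.05 (with quantile normalisation 15, 10 and 9 of them fell). Hspa5 (BiP) rose by 0.56 ± 0.04 (-0.0040 with quantile normalisation), Ddit3 (CHOP) fell (-0.86 ± 0.08), and Scd2, a fatty acid desaturase gene, fell (-1.46 ± 0.07).

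The second hour, 120 min against 60 min, changed 6309 genes (54.1% of those tested by limma at an adjusted p under 0.05), 3033 up (26%) and 3276 down (28.1%). With median scaling more genes went up (3475) than down (2897). Its largest rises, by the naming rule, were Nos2 (3.56), Cxcl9 (3.53), Cxcl11 (3.37), Cmpk2 (3.34), Ccl17 (3.34) and Dll1 (3.33), the last a Notch ligand gene. Nos2 and Cxcl9 had hardly moved by 60 min, with means of 6.57 and 6.86 at 0 min and 6.83 and 7.05 at 60 min, and stood at 10.39 and 10.58 at 120 min. The largest falls of the second hour were Nr4a1 (-3.15), Egr3 (-2.85), Irf2bp2 (-2.74), Fosb (-2.73), Zbtb16 (-2.72) and Egr2 (-2.69). Apart from Irf2bp2 and Zbtb16, these were early genes coming down: Egr3 had means of 6.60 at 0 min, 9.52 at 30 min, 9.46 at 60 min and 6.61 at 120 min, so its 120 min level was not called different from 0 min (0.01 ± 0.14). Zbtb16, the gene of the transcription factor PLZF, was at 5.24, 5.52, 5.67 and 2.95 at the same times. At 120 min Nr4a1 and Fosb were called below their 0 min level (-0.76 and -0.74), and Egr2 was not called (-0.21).

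For most strongly induced genes 120 min was not the summit. Of the 898 genes that rose by at least 1, the WT mean was highest at 120 min for 229 (25.5%), at 240 min for 384 (42.8%), at 360 min for 210 (23.4%), at 60 min for 69 (7.68%) and at 30 min for 6. Among the 628 falls of at least 1 the lowest mean was at 120 min for 189 (30.1%) and at 240 min for 287 (45.7%). From 120 to 240 min 7491 genes changed (64.3%), 3907 up (33.5%) and 3584 down (30.7%), against 3405 up and 4210 down with quantile normalisation. A called peak at 120 min, above both 60 and 240 min, was held by 407 genes and a called trough by 579.

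The sharpest peak was that of Rnd1, with means of 8.88 at 60 min, 10.82 at 120 min and 8.48 at 240 min. Map3k5, the stress kinase ASK1, had been near its unstimulated level of 8.60 at 60 min (8.85), rose to 10.56 ± 0.12 (SD, n = 3) and was back at 8.62 at 240 min. Cish (7.89, 10.11 and 8.59) and Hivep3 (9.71, 11.06 and 9.16) had the same shape, as did Sgms2, a sphingomyelin synthase gene (5.51, 6.96 and 5.24), and Btbd3 (6.46, 8.01 and 6.56). Ifnb1 was likewise highest at 120 min (9.09, 9.81 and 8.36).

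Troughs at 120 min were as brief. Bcl6, a repressor of inflammatory genes, had means of 10.23 at 0 min and 10.29 at 60 min, dropped to 8.81 ± 0.09 at 120 min and was at 10.64 at 240 min. Trp53inp1 (9.33, 7.78 and 9.26 at 60, 120 and 240 min), Ppp1r13b (8.39, 7.12 and 8.66) and Fam110b (6.41, 4.67 and 6.03) went down and came back. Btg2, an antiproliferative immediate early gene, had first risen from 9.86 to 12.70 at 30 min and then passed through 10.97 and 9.03 to 10.49. Cebpb, a factor that drives inflammatory genes, was above its 0 min mean of 8.77 at 60 min (10.01) and 240 min (10.18) but at 8.74 at 120 min, so the 120 min comparison did not call it (-0.03 ± 0.20).

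**Figure D5:**
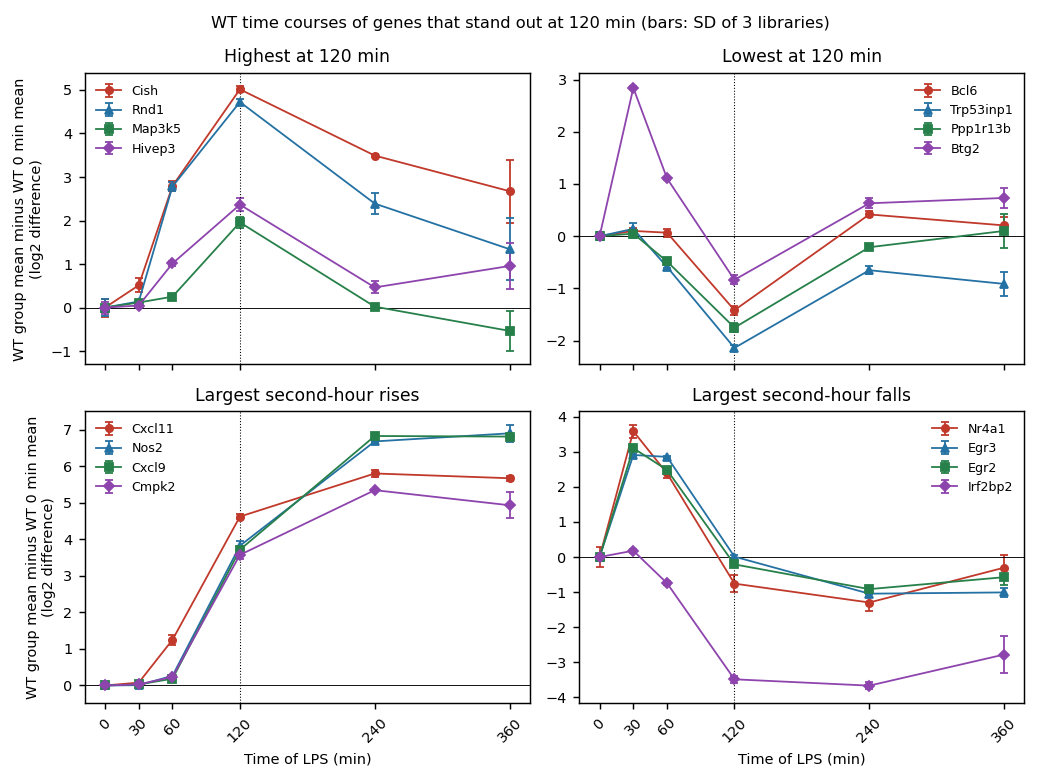
WT group mean minus the WT 0 min mean (log2 difference, vertical axis) against minutes of LPS (horizontal axis), with bars for the SD of 3 libraries at each time; the dotted line marks 120 min. Cish and Rnd1 are highest there (5.02 and 4.72), Bcl6 and Trp53inp1 lowest (-1.42 and -2.14), Nos2 and Cxcl9 go on rising, and Nr4a1, Egr2 and Egr3 have left their 30 min level.

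The same comparison in D310N macrophages, which shares no library with the WT comparison, called 7461 genes (64%), 3718 up (31.9%) and 3743 down (32.1%). With quantile normalisation it was 3013 up and 4661 down. Of the calls 6752 were shared in direction, 87% of those in WT and 90.5% of those in D310N, and 7 genes were called in opposite directions. Of the 1526 WT calls of at least 1, 1521 were called in the same direction in D310N. The difference of the responses itself was called for 109 genes (0.935%; 991 at an unadjusted p under 0.05), 53 with the higher value in D310N (0.455%) and 56 with the lower (0.48%). With median scaling the split was 31 higher and 85 lower. That count was 259 without library 1 of WT at 360 min, and 56 to 96 without any 1 of the 12 libraries compared. Ifnb1 rose by 4.72 in D310N and by 5.16 in WT, Arrdc3 fell in both (-4.01 and -4.08). The difference of response was called for neither (limma adjusted p = 0.807 and 0.981).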

How the data were processed

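RNA was sequenced from 36 macrophage libraries (single end, 75 bases), 3 per genotype and time. Per the submitters' processing notes the authors used STAR 2.5.2a, RSEM 1.2.31 and DESeq2 1.10.1 on mm10. The deposited table holds normalised log2 values per gene, from -4.14 to 19.3; which log transformation was used is not given in the sources used here, and one that pulls low values together would shrink the differences of low genes. Depth is unknown, so counting intervals and detection limits are not given. The table's header writes D309N where the titles write D310N. Of 16439 genes, 23 with names turned into dates were left out. Positions for 11594 tested genes (99.5%) came from GENCODE M21 (GRCm38, the same build).

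The test was that of limma 3.58.1 (R 4.3.3), applied to the log2 values: 12 group means over all 36 libraries, 24 residual degrees of freedom, an intensity trend, two-sided p-values adjusted over 11656 genes by the Benjamini-Hochberg method and called under 0.05. The fit was tested on simulated data. Replicate numbers were not treated as pairs in the test. Between WT at 0 and 120 min the deviations of same-numbered libraries correlated at -0.1511, 0.0319 and -9e-04. Between D310N at 0 and 120 min it was 0.3255, 0.3728 and 0.131, against -0.3263 to 0.0529 for differently numbered ones. Deviations from a mean of 3 libraries are tied to one another. Whether the D310N numbers, which come from the titles, mark pairs was therefore not settled and not tested. The counts with a replicate block are given with the alternatives. Named genes are the 12 largest called rises and falls without overlap and with a mean of at least 50 (linear) in the higher group, the 6 largest peaks, troughs, and second-hour rises and falls under the same floor, members of the 51 lists (the 3 largest of a list, or more where it is described member by member), and Tnip2, Tnip1, Tnip3, Tnfaip3, Map3k8 and Nfkb1. A few genes that these rules name are not reported here. The members and lists were chosen with earlier results of these data known. Lists are described by counts and medians, with no set test. A count near the 32.4% of all tested genes called higher, or the 34.2% called lower, does not set a list apart. Genes with near-identical copies or overlapping neighbours are uncertain, as strand and shared reads are not described.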

Additional observations from a re-analysis of the deposited data

Results flagged for a closer look

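The difference between the D310N and the WT response at 120 min was called (limma adjusted p under 0.05) for 14 of the genes described, and in all 14 the response had the same sign in both genotypes. For 6 genes the call held in every alternative run. Of these, the rise was smaller in D310N for Tgtp1 (2.42 against 3.46 in WT, difference -1.03 ± 0.17 SE, limma adjusted p = 0.00105), Cxcl11 (3.71 against 4.63, -0.91 ± 0.10, limma adjusted p = 1.16e-06), Cxcl9 (2.88 against 3.72, -0.84 ± 0.08, limma adjusted p = 2.7e-07), Irf8 (0.79 against 1.42, -0.63 ± 0.12, limma adjusted p = 0.00468) and Cd274 (2.31 against 2.80, -0.49 ± 0.08, limma adjusted p = 0.00119). Irf2 was lower than at 0 min by more in D310N (-0.63 against -0.23, -0.40 ± 0.08, limma adjusted p = 0.00763).

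The other 8 lost the call in 1 or more alternatives. Nos2 rose less in D310N (3.37 against 3.83, -0.45 ± 0.09, limma adjusted p = 0.01), and Jun was lower by more (-1.80 against -1.38, -0.42 ± 0.09, limma adjusted p = 0.0125). The rise was larger in D310N for the interleukin chains Il23a (4.44 against 3.26, 1.19 ± 0.29, limma adjusted p = 0.038) and Il12a (2.49 against 1.49, 1.00 ± 0.25, limma adjusted p = 0.0437), for Olr1, a scavenger receptor gene (4.83 against 3.90, 0.93 ± 0.23, limma adjusted p = 0.0382), for Gpr84 (3.22 against 2.91, 0.31 ± 0.07, limma adjusted p = 0.0136) and for Ifnar2 (0.77 against 0.53, 0.24 ± 0.06, limma adjusted p = 0.0415). Egr2 was lower than at 0 min by 0.80 in D310N, and its WT difference of -0.21 was not called (difference -0.59 ± 0.14, limma adjusted p = 0.0382). Leaving out any 1 of the 12 libraries ended the call of Ifnar2, and leaving out most of them in turn ended those of Il12a, Il23a, Olr1 and Egr2. The call of Nos2 was lost without library 1 of WT at 120 min (-0.38), that of Jun without library 3 of D310N at 120 min (-0.35) and that of Gpr84 without library 3 of WT at 0 min (0.29).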

How the results depend on the processing

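Of 248 genes given a value or call in the text, 219 kept their call and direction at 120 min against 0 min in all 20 alternatives run, and 19 of the others changed with quantile normalisation alone. Cebpb turned positive with median scaling (0.0060) and without library 3 of WT at 0 min or at 120 min (0.1481 and 0.0286; range with 1 library left out -0.2077 to 0.1481), and Egr3 turned negative without the same libraries (-0.0147 and -0.0080; range -0.0147 to 0.0355); neither was called in any of these. Csf1r turned positive, uncalled, with median scaling (0.0200) and without library 2 of WT at 120 min (range -0.0276 to 0.0027). Quantile normalisation turned Ctsz (-0.2082), Hspa5 (-0.0040), Rps14 (-0.2008), Rpl27 (-0.1472), Rplp2 (-0.2257), Atp5a1 (-0.1666), Adgre1 (-0.1796), Axl (-0.0620), Folr2 (-0.1648), C1qa (-0.1294), C1qb (-0.2919), C1qc (-0.3619), Ccl6 (-0.2519), Gapdh (-0.4159), Samhd1 (-0.1131) and Sp100 (-0.0249) negative, and with it Bst2, Oas2, Gbp8 and Mki67 lost their calls. Cd22, Pf4 and Ptgs1 lost theirs with it and with some libraries left out. Of the genes that quantile normalisation turned negative, Hspa5, Axl, Folr2, Samhd1 and Sp100 were not called with it, and the others were called lower. Egr2 became called in 3 alternatives (lowest limma adjusted p = 0.00546), Egr1 in 1 and Osm in 9. Ccl6 became called higher in 3 and lower with quantile normalisation (limma adjusted p = 0.032). Quantile normalisation called 3195 genes higher and 4703 lower (40.45% higher, 48.6% in the report) and median scaling 4063 and 3668 (52.55%). The median of all genes was -0.0802 and 0.0108. The medians of 20 of 51 lists changed sign under some alternative. Testing for a change beyond a set minimum left 895 genes of at least 1 (642 up, 253 down). Leaving out 1 compared library gave 7349 to 7374 calls. A replicate block gave 7941 calls (3856 up, 4085 down), 1526 of at least 1, and 7649 for D310N and 142 for the difference of responses; all 14 differences of response given by gene kept their calls with it. The D310N difference count of 109 became 363 with library weights and 259 without library 1 of WT at 360 min. It was 56 without library 1 of D310N at 0 min or library 3 of WT at 0 min, 62 without library 3 of D310N at 0 min, 65 without library 3 of D310N at 120 min or library 1 of WT at 0 min, and 70 and 69 without library 1 or 2 of WT at 120 min. The cause of these changes was not tested. With unknown depth, low genes have no detection limit.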
